A study of Mus musculus with 4 samples.

Results

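The genes described here are 10 imprinted genes known for their part in growth control: Meg3, Rian, Mirg and H19, which make long non-coding RNAs, and Peg3, Plagl1, Mest, Ndn, Dlk1 and Grb10, which encode proteins. They were chosen by symbol, and all 10 were found among the 55487 genes of the deposited tables. Their levels were measured by RNA-seq in freshly isolated muscle stem cells (satellite cells) of mouse skeletal muscle. The 4 libraries fall into 2 groups of 2. The Rbfox2 cKO libraries come from mice that carry Rbfox2 flox alleles, Pax7CreERT2 and the Rosa26 EYFP reporter. Tamoxifen injection then deletes Rbfox2, which encodes an RNA-binding splicing regulator, in cells where the Pax7 locus drives the recombinase. The Control libraries are labelled Control only, and whether those mice carry the Cre or the flox alleles or received tamoxifen is not given in the sources used here. The same holds for age, sex and the number of animals behind a library, and the p-values given below thus speak of the spread among these 4 libraries, part or all of which may be technical.

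An imprinted gene is transcribed mainly or wholly from the allele of 1 parent, which is set by DNA methylation laid down in the germ line at a control region of each domain. In mice H19, Meg3, Rian, Mirg and, in most tissues, Grb10 are expressed from the maternal allele, and Dlk1, Peg3, Mest, Plagl1 and Ndn from the paternal allele. Many paternally expressed genes promote fetal growth and many maternally expressed genes restrain it. Several of them are also known to be active in adult stem cells, those of muscle included. The deposited values are totals per gene and do not separate the alleles.

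The non-coding RNAs, and Mest among the coding genes, are also hosts of microRNAs, and some of those sequences are shown. Of the 10 genes, 5 span a miRNA hairpin of the RefSeq sequence table (GRCm38.p6) on the same strand, 20 hairpins in all, with 38 mature sequences. Mirg holds 14 hairpins, Rian 3, and Meg3, H19 and Mest 1 each. The hairpins of H19 (Mir675) and Meg3 (Mir770) lie in an annotated exon, and those of Rian and Mest (Mir335) in introns. The seed, bases 2 to 8 from the 5′ end, is in capitals.
miR-675-5p (H19, chr7:142577112-142577133, minus strand): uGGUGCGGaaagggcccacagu
miR-675-3p (H19, chr7:142577078-142577099, minus strand): cUGUAUGCccuaaccgcucagu
miR-770-5p (Meg3, chr12:109563710-109563731, plus strand): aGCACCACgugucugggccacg
miR-770-3p (Meg3, chr12:109563744-109563765, plus strand): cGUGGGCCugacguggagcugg
miR-341-3p (Rian, chr12:109611556-109611576, plus strand): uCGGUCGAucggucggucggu
miR-370-3p (Rian, chr12:109618305-109618326, plus strand): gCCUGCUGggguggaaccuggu
miR-335-5p (Mest, chr6:30741314-30741336, plus strand): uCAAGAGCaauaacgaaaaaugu
miR-335-3p (Mest, chr6:30741354-30741375, plus strand): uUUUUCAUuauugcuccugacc
The 38 mature sequences carry 37 distinct seeds. The shared one is GGUUGCC, which is found in 2 miRNAs of Mirg that are printed here for that reason, with both arms of miR-410, whose hairpin lies in a Mirg exon.
miR-453 (Mirg, chr12:109735669-109735692, plus strand): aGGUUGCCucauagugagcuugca
miR-496a-5p (Mirg, chr12:109739132-109739152, plus strand): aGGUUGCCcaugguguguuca
miR-410-5p (Mirg, chr12:109743729-109743749, plus strand): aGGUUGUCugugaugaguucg
miR-410-3p (Mirg, chr12:109743764-109743784, plus strand): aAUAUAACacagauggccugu
These libraries measure the host transcripts. All 20 hairpins have a row of their own in the count table, with at most 13 estimated counts in a library, and mature miRNAs were not measured.

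Each library held between 68884091 and 101997422 estimated counts. CPM here means estimated counts as a rate of the TMM-scaled library total, and TPM is the authors' length-corrected value, which is the only scale used to compare different genes. Rbfox2, the targeted gene, stood at 40.0 and 15.2 CPM in the cKO libraries, against 131 and 56.0 CPM in Control. Its log2 fold change was -1.76 (SE 0.35, edgeR adjusted p = 0.000252), and the call was lost with any 1 library left out, at log2 fold changes between -2.61 and -1.04. The 10 satellite cell markers summed to 17330 and 17810 TPM in cKO libraries 1 and 2 and to 17830 and 17230 TPM in Control 1 and 2, and every one was detected in each library. Most of that sum was Sdc4, at 10960 and 11820 TPM in cKO and 12060 and 11380 TPM in Control. Pax7, whose locus carries the Cre, stood at 15.95 and 13.46 TPM in cKO, against 7.903 and 6.995 TPM in Control, and edgeR did not call any of the 10. Stromal markers summed to 740 and 607 TPM in cKO, against 625 and 734 TPM in Control, endothelial markers to 162 and 129 TPM against 99.7 and 125 TPM, and leukocyte markers to 53.6 and 44.8 TPM against 30.9 and 33.1 TPM. Pericyte markers summed to 119 and 93.6 TPM in cKO, against 89.7 and 87.5 TPM in Control, and muscle fibre markers to 64.5 and 40.5 TPM against 63.1 and 60.4 TPM. Schwann cell markers summed to 37.2 and 33.9 TPM in cKO, against 27.0 and 26.3 TPM in Control. Erythroid markers were the exception in size, at 1799 and 1471 TPM in cKO against 337 and 763 TPM in Control, with 5 of 6 past the edgeR threshold. No marker of these 8 lists was at 0 in any library, and the part of other cells in the values below was not tested. With bulk RNA, fewer cells of a type and less RNA per cell cannot be told apart.

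The cKO 1 library had the highest low-level background and cKO 2 the lowest. The TMM factors were 1.266 and 0.8755 in cKO 1 and 2, against 0.935 and 0.965 in Control 1 and 2. Well-expressed genes were also shifted on the CPM scale, and a link of that shift to the background was not tested. Olfactory and vomeronasal receptor genes, 1437 in all, are not known to be used by satellite cells, and their median TPM was 0.689 and 0.247 in cKO 1 and 2, against 0.347 and 0.417 in Control 1 and 2. Over the 10579 genes that averaged 4 CPM or more, the median log2 ratio to the Control mean was -0.312 in cKO 1 and 0.122 in cKO 2 on the CPM scale. On the TPM scale the same medians were 0.138 in cKO 1 and 0.012 in cKO 2. The CPM of a well-expressed gene is therefore to be read against a shift that differs between the 2 cKO libraries.

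The 10 genes covered a wide range of levels in these cells. Meg3 was the most abundant, with a mean over the 4 libraries of 378 TPM, followed by Peg3 (113 TPM), Grb10 (80.6 TPM), Plagl1 (45.8 TPM), Rian (37.2 TPM), Mirg (15.5 TPM), Mest (12.8 TPM), Ndn (2.98 TPM), Dlk1 (0.956 TPM) and H19 (0.775 TPM). Among all 55487 genes, Meg3 ranked 350 and 285 in cKO 1 and 2 and 407 and 474 in Control 1 and 2. Peg3 ranked 1044 and 941 in cKO, against 1470 and 1833 in Control. In this order 4 neighbouring pairs overlapped in their range of TPM over the libraries: Peg3 and Grb10, Plagl1 and Rian, Mirg and Mest, and Dlk1 and H19. The remaining 5 neighbouring pairs did not overlap. Plagl1 was above Rian in each of the 4 libraries, Peg3 above Grb10 in 3 of 4, Mirg above Mest in 3 of 4, and Dlk1 above H19 in 2 of 4.

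**Figure D1:**
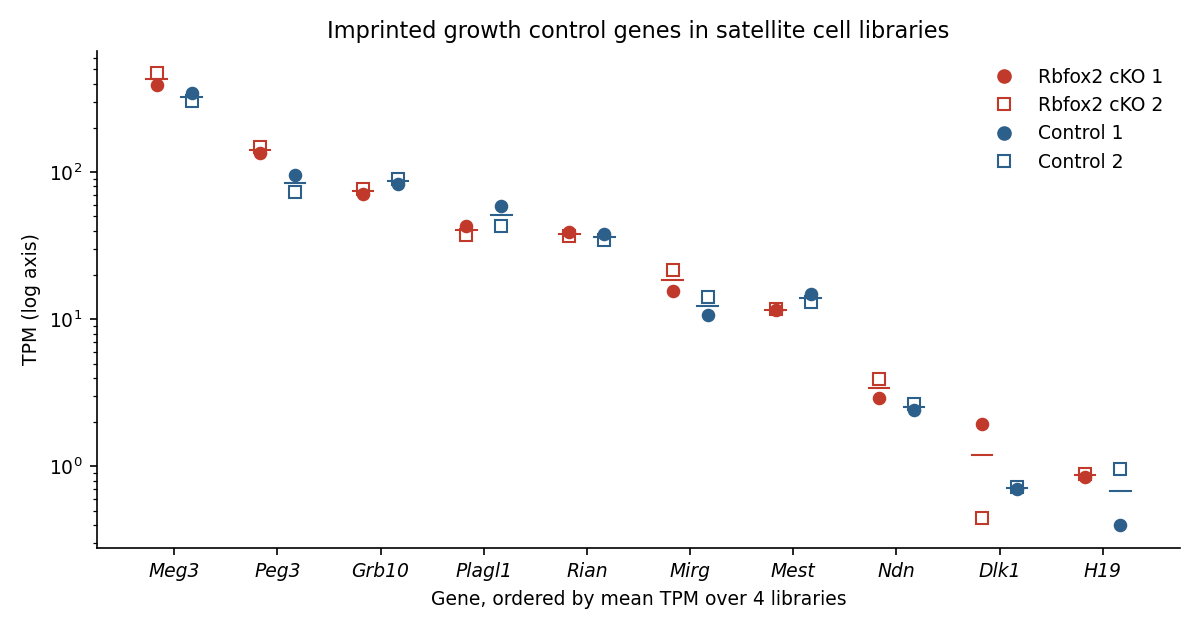
TPM (log axis) of the 10 imprinted genes in each library, with Rbfox2 cKO left of Control for each gene, filled circles for library 1, open squares for library 2 and bars for group means. The genes run from Meg3, at 305 to 470 TPM, to H19, at 0.398 to 0.957 TPM, and 4 pairs of neighbouring genes overlap in range.

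No member of the group differed between Rbfox2 cKO and Control past the threshold. In edgeR's quasi-likelihood test 0 of 10 rose and 0 fell at an adjusted p of 0.05, and 0 had an unadjusted p under 0.05. Over all 38143 genes tested, 0.551% were called (0.364% higher and 0.186% lower in cKO) and 4.83% had an unadjusted p under 0.05, so with 10 genes a count of 0 is near the background. DESeq2 also called 0 of the 10, with 0.331% of its genes called. All 10 passed the filter on low counts. The log2 fold change was positive for 6 and negative for 4, from -0.50 for Plagl1 to 0.53 for Peg3, with a median of 0.105, beside a median of 0.063 over all genes tested. In limma on log2(TPM + 1), 8 of the 10 reached the mean TPM of 1 and 0 of 8 were called. At an unadjusted p under 0.05 there were 3 of 8 (Peg3, Meg3 and Mirg, each higher in cKO), where 14.9% of the 17210 genes tested in limma had such a p, and 0.308% were called. Fold changes on the log2(TPM + 1) scale understate the change of low genes.

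**Figure D2:**
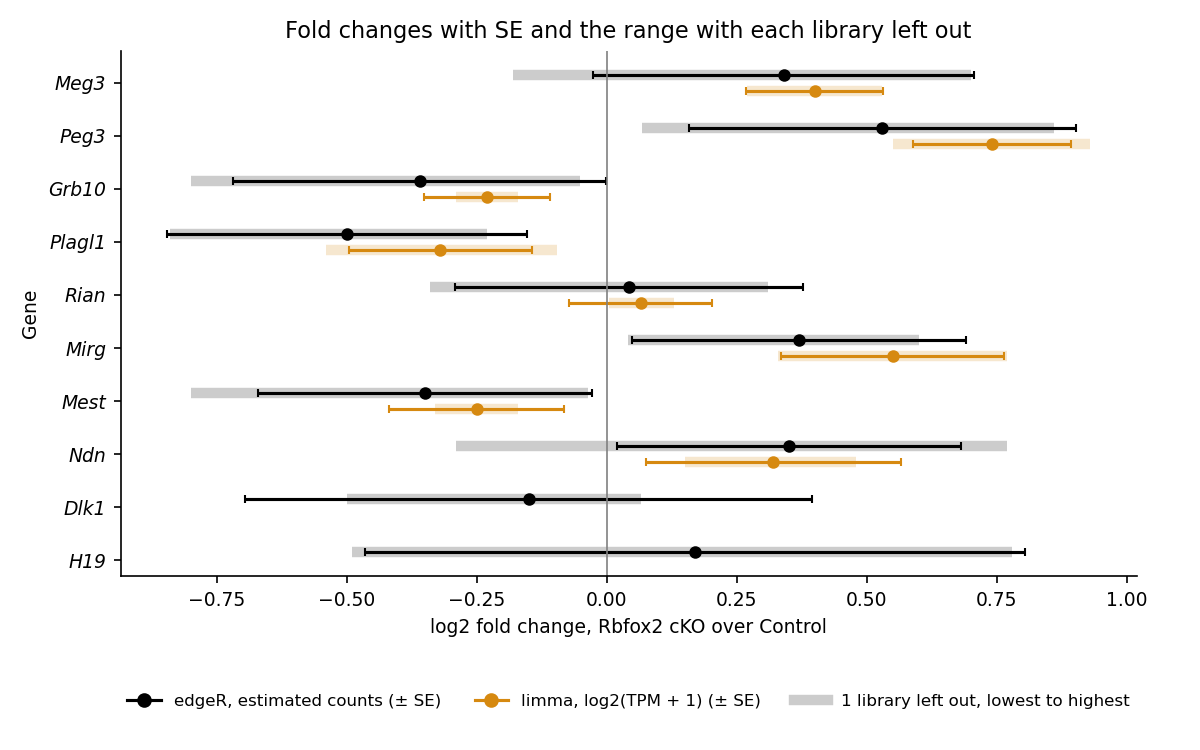
Log2 fold change of each gene, Rbfox2 cKO over Control, in edgeR (black) and in limma on log2(TPM + 1) (orange), as points with SE bars, with pale bands from the lowest to the highest value with 1 library left out. The edgeR bands of Meg3, Rian, Ndn, Dlk1 and H19 cross 0, and the limma values lie between -0.32 for Plagl1 and 0.74 for Peg3.

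Meg3, Rian and Mirg lie in this order on the plus strand of chromosome 12 (GRCm38), Meg3 at 109541001 to 109571726, Rian at 109603940 to 109661716 and Mirg at 109729764 to 109749460. They are thought to be parts of 1 long maternal transcription unit that carries a large miRNA cluster and, in Rian, small nucleolar RNAs. Between the start of Meg3 and the end of Mirg lie 57 miRNA hairpins of the RefSeq sequence table, 18 of them inside the 3 genes. GENCODE M21 places a further miRNA gene on the same strand inside Meg3 (Mir1906-1) and inside Rian (Gm23912), which that count leaves out. Dlk1, a paternally expressed transmembrane protein related to Notch ligands, spans -88.2 to -77.7 kb relative to the Meg3 start on the same strand. Rtl1, a paternally expressed gene derived from a retrotransposon, lies on the minus strand between Meg3 and Rian, and Dio3, which inactivates thyroid hormone, 738 kb from the Meg3 start.

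Meg3 stood at 391 and 470 TPM in the cKO libraries, against 347 and 305 TPM in Control. Both cKO values were above both Control values in TPM. In CPM it stood at 304 and 528 in cKO 1 and 2, against 351 and 306 in Control, so cKO 1 lay below both Control libraries and the groups overlapped. The group means were 431 ± 56.1 TPM in cKO and 326 ± 30.3 TPM in Control (SD, n = 2 each). Its fold change on the log2 scale was 0.34 (SE 0.37, adjusted p = 1.00) in edgeR and 0.40 (SE 0.13, adjusted p = 0.232) in limma. The edgeR value rested on cKO 2: without cKO 1 it was 0.70 (adjusted p = 0.00434), where 2.26% of all genes were called, and without cKO 2 it was -0.18. In limma on TPM it kept its direction, at 0.53 without cKO 1 and 0.27 without cKO 2, and was not called in either. Over the genes averaging 4 CPM or more the edgeR fits without cKO 1 and without cKO 2 had medians of 0.135 and -0.384. The mean transcript length behind the counts was 1763 and 1748 bases in cKO and 1693 and 1711 bases in Control, so transcript length differed little between the groups. Of the 50-base words of Meg3 transcripts, 10.4% occur in other annotated genes, 6.16% in the antisense gene Gm26906, which had 0 counts in each library.

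Mirg stood at 15.7 and 21.6 TPM in cKO, against 10.7 and 14.1 TPM in Control. It was the only member whose cKO libraries both lay above the Control libraries in CPM as well, at 11.6 and 16.1 CPM against 10.6 and 10.9 CPM. In log2 terms its change was 0.37 (SE 0.32, adjusted p = 1.00) in edgeR and 0.55 (SE 0.21, adjusted p = 0.290) in limma, and with 1 library left out it lay between 0.04 and 0.60 in edgeR and between 0.33 and 0.77 in limma, called in none. Its mean transcript length was shorter in library 2 of either group, at 1682 and 1163 bases in cKO 1 and 2 and 1664 and 1320 bases in Control 1 and 2.

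Rian differed least among the 3. It stood at 39.5 and 36.6 TPM in cKO, against 37.9 and 34.8 TPM in Control, and the groups interleaved. The log2 fold change was 0.043 (SE 0.33, adjusted p = 1.00) in edgeR, where it turned to -0.009 with DESeq2 size factors, -0.34 without cKO 2 and -0.057 without Control 2. In limma it was 0.065 (SE 0.14, adjusted p = 0.861). The ratio of Meg3 to Rian in TPM was 9.90 and 12.9 in cKO 1 and 2, against 9.16 and 8.76 in Control 1 and 2. The ratio of Meg3 to Mirg was 24.99 and 21.8 in cKO, against 32.5 and 21.7 in Control, and here the groups overlapped.

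Dlk1 was at the edge of detection, with 104 and 68 estimated counts in cKO 1 and 2 and 88 in either Control library. In TPM it stood at 1.95 and 0.448 in cKO, against 0.702 and 0.727 in Control, so the cKO libraries lay on either side of the Control libraries. In CPM it stood at 1.20 and 0.762 in cKO, against 1.11 and 1.07 in Control. The mean transcript length was 1391 bases in cKO 1 and between 2498 and 2653 bases in the other 3, a difference that enters the high TPM of cKO 1. The edgeR log2 fold change was -0.15 (SE 0.54, adjusted p = 1.00), and it was 0.071 with library totals only and 0.065 without cKO 2. Meg3 exceeded Dlk1 by a TPM ratio of 201 and 1051 in cKO 1 and 2 and of 495 and 419 in Control 1 and 2.

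Of the neighbours, Rtl1 stood at 1.40 and 1.48 TPM in cKO, against 1.02 and 0.753 TPM in Control. Both cKO libraries were higher in TPM and in CPM, and edgeR gave 0.57 on the log2 scale (SE 0.35, adjusted p = 1.00). Plus-strand miRNA hairpins such as Mir127 lie inside the span of Rtl1, on the opposite strand. No strand setting is given, so reads from either strand there cannot be told apart. Dio3 stood at 1.24 and 0.566 TPM in cKO, against 2.24 and 2.28 TPM in Control. Both cKO libraries were lower on either scale, and the edgeR value was -1.55 on the log2 scale (SE 0.51, unadjusted p = 0.00219, adjusted p = 0.220). It was -1.76 (adjusted p = 0.0432) without cKO 1 and -1.43 (adjusted p = 0.0985) without cKO 2, fits in which 2.26% and 5.39% of all genes were called. Without Control 1 it was -1.58 and without Control 2 -1.56, each with an edgeR adjusted p = 1.00, so the direction held in all 4 and the call in 1. The 95th percentile of the receptor genes was 1.84 and 0.689 TPM in cKO 1 and 2 and 0.847 and 1.12 TPM in Control 1 and 2, so Dio3 and Rtl1 lay below it in cKO 1, Dio3 also in cKO 2 and Rtl1 also in Control 2, and above it in the other libraries.

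**Figure D3:**
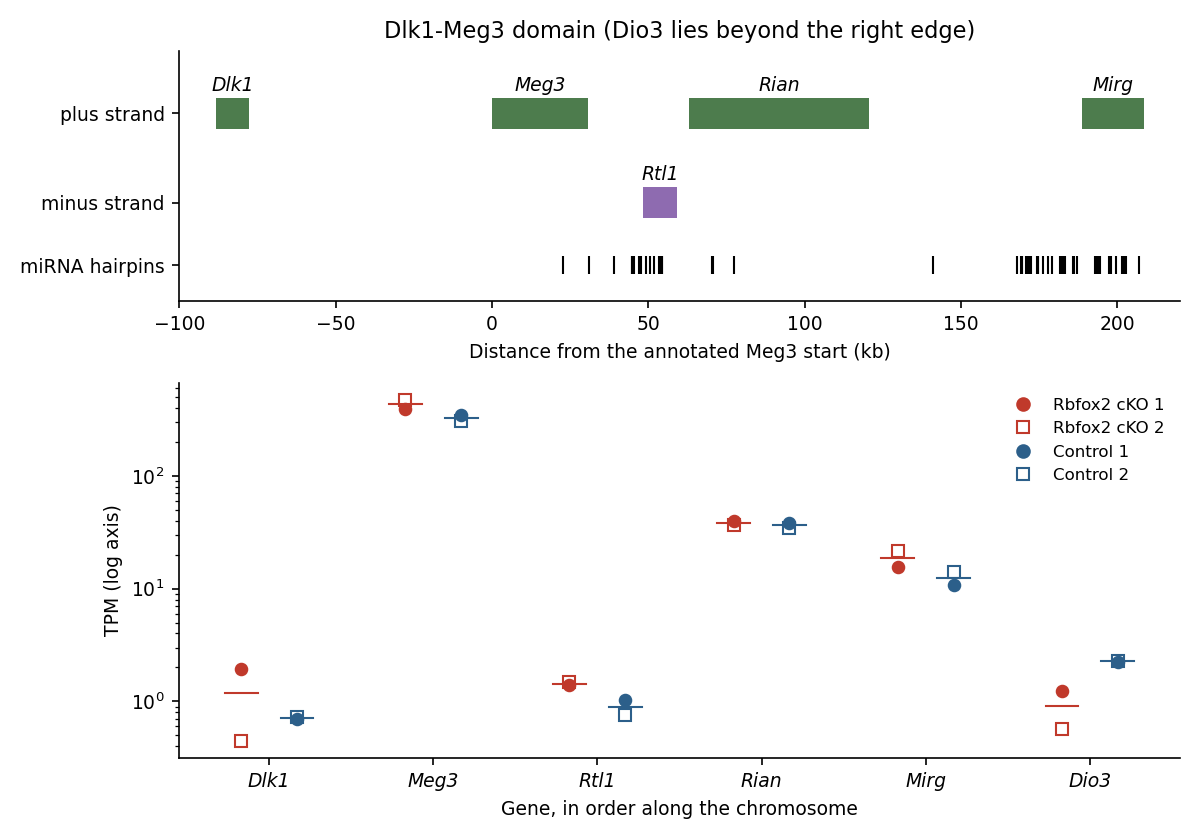
Top, the genes and miRNA hairpins of the Dlk1-Meg3 domain by strand, as distance in kb from the annotated Meg3 start, with Dio3 outside the range drawn. Bottom, TPM (log axis) of the domain's genes in each library, Rbfox2 cKO left of Control, where Meg3 at 305 to 470 TPM stands above Dlk1 at 0.448 to 1.95 TPM.

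Peg3, a paternally expressed zinc finger protein known to mark adult stem and progenitor cells in several tissues (chromosome 7, 6703892 to 6730431, minus strand), had the largest positive fold change of the 10. It stood at 134 and 148 TPM in cKO, against 96.2 and 73.4 TPM in Control, and the groups did not overlap in TPM. In CPM it stood at 422 and 689 in cKO 1 and 2, against 431 and 337 in Control 1 and 2, so cKO 1 lay between the Control libraries. The group means were 141 ± 9.67 TPM in cKO and 84.8 ± 16.1 TPM in Control (SD, n = 2 each). Its fold change on the log2 scale was 0.53 (SE 0.37, adjusted p = 1.00) in edgeR and 0.74 (SE 0.15, unadjusted p = 0.00135, adjusted p = 0.0966) in limma. The edgeR value was 0.86 (adjusted p = 0.00109) without cKO 1 and 0.067 without cKO 2. In limma it was 0.93 (adjusted p = 7.97e-05) without Control 1, where 2.41% of all genes were called, and 0.74 (adjusted p = 0.00491) with no filter on low TPM, where 0.742% were. With library totals only it was called in edgeR at 0.64 (SE 0.131, adjusted p = 0.0312), with 0.739% of genes called. The median of all genes was then 0.25 in place of 0.063. Among the genes averaging 4 CPM or more, that median was 0.068 in place of -0.064. Peg3 shares no 50-base word with another annotated gene, and its mean transcript length was 7121 and 7251 bases in cKO and 7514 and 7809 bases in Control.

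Plagl1, a paternally expressed zinc finger transcription factor known to regulate other imprinted genes (chromosome 10, 13060504 to 13131694, plus strand), had the largest negative fold change. It stood at 43.3 and 37.7 TPM in cKO, against 59.0 and 43.2 TPM in Control. Control 1 stood apart as the highest library, and cKO 1 and Control 2 were nearly equal. In CPM it stood at 73.9 and 105 in cKO, against 149 and 104 in Control. In log2 terms its change was -0.50 (SE 0.35, adjusted p = 1.00) in edgeR and -0.32 (SE 0.18, adjusted p = 0.445) in limma, and -0.23 and -0.095 without Control 1. It was negative in each of the 10 alternative fits in edgeR and DESeq2 and called in none.

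Grb10, an adaptor protein that restrains signalling from the insulin and IGF receptors (chromosome 11, 11930508 to 12038683, minus strand), stood at 71.1 and 77.1 TPM in cKO, against 83.7 and 90.5 TPM in Control. Both cKO libraries were below both Control libraries in TPM, and also in CPM, at 154 and 245 CPM against 249 and 264 CPM. The group means were 74.1 ± 4.24 TPM in cKO and 87.1 ± 4.81 TPM in Control (SD, n = 2 each). The log2 fold change was -0.36 (SE 0.36, adjusted p = 1.00) in edgeR and -0.23 (SE 0.12, adjusted p = 0.418) in limma. Without cKO 2 it was called in edgeR at -0.80 (adjusted p = 0.0109), where 5.39% of all genes were called and the median over genes averaging 4 CPM or more was -0.384. Without cKO 1 it was -0.051.

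Mest, a paternally expressed protein of the alpha/beta hydrolase family (chromosome 6, 30723547 to 30748465, plus strand), stood at 11.5 and 11.7 TPM in cKO, against 14.9 and 13.2 TPM in Control. The cKO libraries were below Control in TPM. In CPM it stood at 11.7 and 18.8 in cKO 1 and 2, against 20.2 and 18.8 in Control, where cKO 2 and Control 2 were nearly equal. Its fold change on the log2 scale was -0.35 (SE 0.32, adjusted p = 1.00) in edgeR and -0.25 (SE 0.17, adjusted p = 0.526) in limma, and in edgeR it was -0.037 without cKO 1 and -0.80 without cKO 2. Mest shares 912 exonic bases with Copg2 on the opposite strand, and 21.2% of its 50-base words lie in Copg2 transcripts. Copg2 had 172 and 177 estimated counts in cKO and 231 and 194 in Control, against 1018 to 1679 for Mest, and without strand the reads of the overlap cannot be assigned.

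Ndn, the paternally expressed melanoma antigen family protein necdin, known to restrain the cell cycle and to act in muscle progenitors (chromosome 7, 62346569 to 62350262, plus strand), stood at 2.91 and 3.93 TPM in cKO, against 2.40 and 2.65 TPM in Control. In TPM cKO was higher in both libraries, and in CPM cKO 1 was the lowest of the 4, at 4.74 and 9.32 CPM in cKO 1 and 2 against 5.30 and 5.76 CPM in Control. Ndn has 1 annotated transcript, so for this gene the 2 scales differ only in how libraries are scaled. In log2 terms its change was 0.35 (SE 0.33, adjusted p = 1.00) in edgeR and 0.32 (SE 0.25, adjusted p = 0.589) in limma, and it was 0.77 without cKO 1 and -0.29 without cKO 2 in edgeR. In limma it lay between 0.15 and 0.48 with 1 library left out.

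H19, a maternally expressed non-coding RNA that is abundant in fetal muscle and in cultured myoblasts (chromosome 7, 142575529 to 142578143, minus strand), was at a very low level here. It had 38 and 78 estimated counts in cKO 1 and 2, against 30 and 65 in Control 1 and 2. In TPM it stood at 0.851 and 0.893 in cKO, against 0.398 and 0.957 in Control, and the groups overlapped. The edgeR log2 fold change was 0.17 (SE 0.63, adjusted p = 1.00), with -0.49 without cKO 2 and -0.27 without Control 1. Of the 1437 receptor genes, 37.7% and 1.95% had a TPM at or above that of H19 in cKO 1 and 2, and 41.5% and 8.14% in Control 1 and 2. For Dlk1 the shares were 4.31% and 16.3% in cKO, against 10.7% and 18.2% in Control. Ndn was above all but 0.765% of the receptor genes in cKO 1 and all but 0.0696% in the other 3 libraries. H19 in cKO 1 and Control 1 therefore lay inside the bulk of the background, and no direction between the groups was detectable. Igf2, the fetal growth factor whose enhancers H19 shares, stood at 16.6 and 12.3 TPM in cKO, against 8.86 and 14.1 TPM in Control, and edgeR gave 0.011 on the log2 scale (SE 0.32, adjusted p = 1.00), which was -0.25 without cKO 2 and -0.40 without Control 1.

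**Figure D4:**
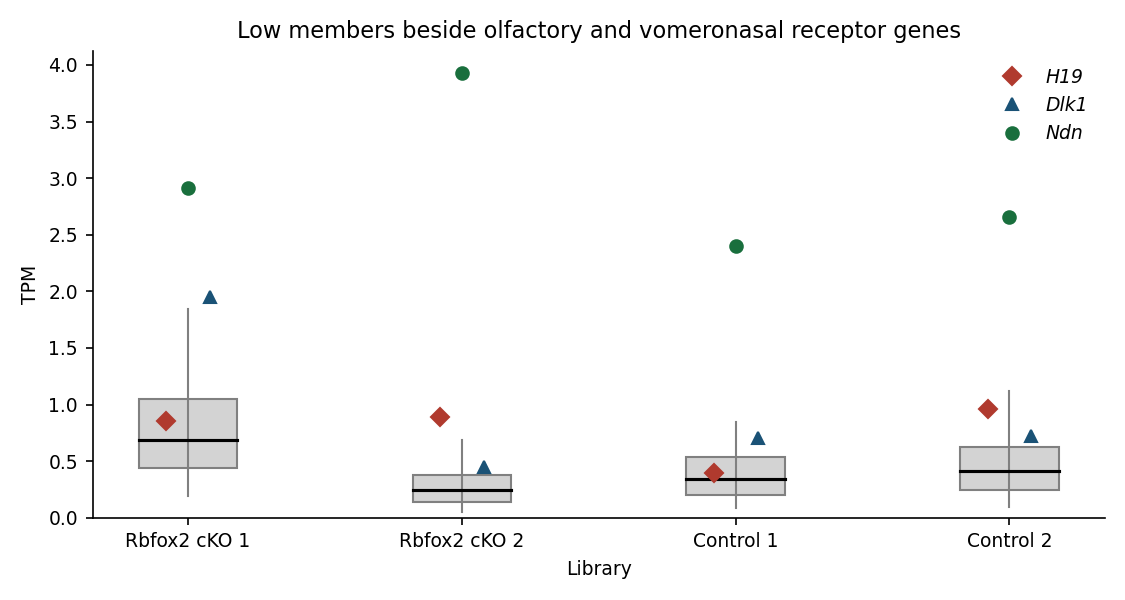
TPM of H19, Dlk1 and Ndn in each library beside the olfactory and vomeronasal receptor genes, whose box spans the 25th to 75th percentile, with the median as a bar and whiskers from the 5th to the 95th percentile. H19 lies inside the box in Rbfox2 cKO 1 and Control 1, and Ndn lies above the whiskers in each library.

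The groups overlapped or not in different ways on the 2 scales. In CPM 2 of the 10 genes had groups without overlap (Mirg higher and Grb10 lower in cKO), against 31.3% of all genes tested (18% higher and 13.3% lower). In TPM 6 of the 8 genes tested in limma did (Meg3, Peg3, Mirg and Ndn higher, Mest and Grb10 lower), against 47.8% of the genes tested there (32% higher and 15.7% lower). By parental origin, 4 of 5 maternally expressed members and 2 of 5 paternally expressed members had a positive edgeR log2 fold change, against 55% of all genes tested. In edgeR the signs of Meg3, Rian, H19, Ndn and Dlk1 turned when 1 library was left out. Without cKO 2 the median over genes averaging 4 CPM or more was -0.384. Meg3 (-0.18), Rian (-0.34), Ndn (-0.29) and Dlk1 (0.065) lay above that median in this fit, and H19 (-0.49) below it.

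The other imprinted genes were taken from a list of 72 symbols, 69 of which are in the tables. The list was drawn from textbook knowledge, and whether each gene is imprinted in these cells was not measured. In edgeR 67 were tested, 0 rose, 0 fell and 4 had an unadjusted p under 0.05, against 4.83% of all genes tested. DESeq2 called 0, and limma called 0 of 53, with 10 at an unadjusted p under 0.05, against 14.9% of all genes tested there. The median edgeR log2 fold change was 0.072, beside 0.063 over all genes tested, and 36 were positive and 31 negative, against 55% positive over all genes tested. Groups did not overlap in CPM for 23 of the 67, against 31.3% of all genes. The gene closest to the threshold was Slc38a4, an amino acid transporter important in the placenta, named after its values were seen. It stood at 2.20 and 1.50 TPM in cKO, against 3.41 and 4.11 TPM in Control, and edgeR gave -1.20 on the log2 scale (SE 0.34, adjusted p = 0.0589). It was called at -1.18 (adjusted p = 0.0211) without cKO 1 and at -1.27 (adjusted p = 0.0225) without cKO 2, where 2.26% and 5.39% of all genes were called. It was not called without Control 1 (-1.33) or without Control 2 (-1.09), each with an edgeR adjusted p = 1.00, nor in limma (adjusted p = 0.246).

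On distal chromosome 7 the list joined the H19-Igf2 and Kcnq1 domains. There Cdkn1c, the maternally expressed inhibitor of cyclin-dependent kinases, stood at 10.2 and 4.45 TPM in cKO, against 2.90 and 3.96 TPM in Control. Its edgeR log2 fold change was 0.91 (SE 0.36, adjusted p = 0.558). Tssc4 was high in TPM in cKO 1 alone, at 29.6 and 8.93 TPM in cKO 1 and 2 against 8.55 and 9.50 TPM in Control. Its log2 fold change was 0.96 (edgeR adjusted p = 0.267), with 0.27 without cKO 1 and 1.36 (adjusted p = 0.00635) without cKO 2, where 5.39% of all genes were called. With either Control library left out its adjusted p was 1.00. Cd81, a tetraspanin, stood at 503 and 475 TPM in cKO, against 492 and 517 TPM in Control. Kcnq1ot1, the long antisense RNA of the Kcnq1 domain, had a log2 fold change of 0.057. It was -0.15 for Osbpl5, 0.46 for Kcnq1 and -0.50 for Phlda2, and each of these, Kcnq1ot1 included, had an edgeR adjusted p = 1.00.

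In the domain of Ndn, Peg12 stood at 13.3 and 15.5 TPM in cKO, against 17.6 and 21.7 TPM in Control. Its log2 fold change was -0.56 (SE 0.33, edgeR adjusted p = 1.00), and without cKO 2 it was called at -1.06 (adjusted p = 0.0161), where 5.39% of all genes were called. It was not called with any other library left out. Atp10a stood at 25.2 and 15.5 TPM in cKO, against 11.9 and 10.8 TPM in Control, and edgeR gave 0.60 on the log2 scale (SE 0.33, adjusted p = 1.00). The log2 fold change was 0.21 for Ube3a, the ubiquitin ligase of this domain, 0.42 for Snrpn and -0.18 for Snhg14. Beside Peg3 the log2 fold change was 0.38 for Usp29 and -0.18 for Zim1, beside Grb10 -0.43 for Cobl and 0.12 for Ddc, beside Mest -0.41 for Copg2, and beside Plagl1 -0.070 for Phactr2, each with an edgeR adjusted p = 1.00. Copg2 and Cobl were lower, and Usp29 higher, in both cKO libraries in CPM. Of the 31 other imprinted genes tested in the members' domains, 12 had groups without overlap in CPM, against 31.3% of all genes tested.

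The 5 most abundant genes of the list were Gnas, Cd81, H13, Dcn and Airn. Gnas, which encodes the stimulatory G protein subunit, stood at 884 and 568 TPM in cKO, against 312 and 286 TPM in Control. Both cKO libraries were higher in TPM and in CPM, and the log2 fold change was 0.72 (SE 0.37, adjusted p = 1.00) in edgeR and 1.24 (adjusted p = 0.0752) in limma. Dcn, the stromal proteoglycan decorin, stood at 184 and 140 TPM in cKO, against 112 and 126 TPM in Control (log2 fold change 0.27, edgeR adjusted p = 1.00). Airn, the antisense RNA of the Igf2r domain, stood at 94.2 and 116 TPM in cKO, against 94.6 and 81.0 TPM in Control, and H13 at 152 and 134 TPM in cKO, against 131 and 165 TPM in Control.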

How the data were processed

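Each library was made from 10 ng of RNA by SMART-Seq, per the labels' protocols. HISAT2 2.1.0, StringTie 1.3.6 and GRCm38 appear in the submitters' processing notes without a role or order. No annotation release or strand setting is given in the sources used here. The authors deposited estimated counts per gene as whole numbers, so no rounding was needed, and TPM per gene, a length-corrected unit that keeps no depth. In genes with 1 transcript and over 200 counts, 98.7% to 98.9% of counts were within 1% of a constant times TPM times length. The mean transcript length of other genes was computed from that constant.

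Of 55487 identifiers, 55394 matched GENCODE M21 (GRCm38) without the version, which supplied coordinates. The version of Rian in the tables is not that of M21, so its coordinates may differ slightly. Sequences are from RefSeq (GRCm38.p6).

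The test on counts was that of edgeR 4.0.16 under R 4.3.3 (TMM, filterByExpr, robust quasi-likelihood test, Benjamini-Hochberg over all genes tested, threshold 0.05). The SE is the size of the log2 fold change over the square root of its F statistic. The test on TPM was limma 3.58.1, with a robust trend, after log2(TPM + 1) of each gene that averaged 1 TPM or more. Alternatives were other scalings and filters, DESeq2 1.42.0, each library left out, and a block for the replicate number. The scripts were tested on simulated data. Libraries of a group differed beyond counting error (chi-square over degrees of freedom of 83.5 in cKO and 49.6 in Control) and were treated as separate. The common biological coefficient of variation was 0.373, a value pooled over the genes kept in the main edgeR fit. Whether spread between libraries or depth limits a given comparison was not tested. The members' SE depended on which genes were kept. Where 2 libraries had to reach 5 CPM, it was 0.15 for Meg3, 0.158 for Peg3, 0.163 for Mirg and 0.127 for Grb10. In the main fit it was 0.37, 0.37, 0.32 and 0.36. The edgeR adjusted p under that filter was 0.214, 0.156, 0.204 and 0.271 in the same order, and 0 members were called.

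The members and lists were chosen with earlier results of these data known. The rule for named genes takes the 10 members, Rbfox2, and from the list of other imprinted genes every called gene, those in a member's domain with a mean TPM of at least 1, and the 5 with the highest mean TPM.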

Additional observations from a re-analysis of the deposited data

How the results depend on the processing

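Leaving out each library in turn moved the edgeR log2 fold change between -0.18 and 0.70 for Meg3, 0.067 and 0.86 for Peg3, -0.80 and -0.051 for Grb10, -0.34 and 0.31 for Rian, -0.29 and 0.77 for Ndn, -0.50 and 0.065 for Dlk1, and -0.49 and 0.78 for H19. Such fits leave a lone library that is assumed to vary like the other group. Leave-one-out values in limma on TPM lay between 0.55 and 0.93 for Peg3. Mirg, Peg3, Mest, Plagl1 and Grb10 kept their direction in each of 10 alternative fits in edgeR and DESeq2. Rian was at -0.009 with DESeq2 size factors, and Dlk1 at 0.071 with library totals only. Peg3 passed with library totals only (0.64 in edgeR) and with no filter on low TPM (0.74 in limma), and the cause was not tested. H19 and Dlk1 gave no value where 2 libraries had to reach 5 CPM, nor Ndn in limma where the mean had to reach 5 TPM.

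The members called numbered 0 in edgeR, where 0.551% of all genes were called, and 1 with library totals only, where 0.739% were. Fits with a library left out leave a lone library in 1 group. Their calls among the imprinted genes are therefore not counted, whichever library is left out. Values of single genes in such fits are given above. The other imprinted genes called numbered 0 in edgeR, and 1 at an adjusted p of 0.1, where 260 of all 38143 genes tested passed. Over all genes 210 were called, 119 with DESeq2 size factors, 28 with no filter, 14 with a CPM of at least 5, 93 in DESeq2, and between 51 and 2267 with a library left out. Of the 210, 139 were higher (66.2%), against 55.5% of calls with DESeq2 size factors and 55.9% in DESeq2. Without cKO 2 the split turned, with 251 of 2267 calls higher (11.1%), and without cKO 1 it was 67.6% of 896. The replicate block on the shared replicate numbers called 96 genes and 0 members. Same-numbered libraries of the groups also share a part of their library code, and the labels do not say what that part or the number marks. Deviations of same-numbered libraries correlated at -0.122, so a crossed pairing was added after seeing the data. It called 243 genes, 0 members and 1 other imprinted gene.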
